A study of Mus musculus with 6 samples.

Results

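Collagen genes were compared between endothelial cell populations of mouse lymph nodes (LN). The members were all genes whose platform symbol has the form Col, chain type, a, chain number, each represented by its brightest probe set on average over the arrays. They numbered 42 genes of the 18193 with a probe set of their own, and 82 of the 45037 probe sets that are not controls. By structure, 11 were fibrillar chains, 8 were basement membrane chains (types IV, XV and XVIII), 9 were fibril-associated chains, 5 formed beaded filaments, 4 were transmembrane collagens and 3 formed networks. The anchoring fibril collagen Col7a1 and the short collagen Col26a1 made up the rest.

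All cells came from LN of C57BL/6 mice aged 6 weeks, without any treatment or engineered allele in the labels. Inguinal, brachial, axillary, cervical and mesenteric LN were pooled, digested with collagenases, depleted of CD45+ cells on magnetic beads, and sorted by gp38 and CD31. 3 arrays are labelled BEC and double positive (gp38+ CD31+), and 3 are labelled LEC and CD31+. Blood endothelial cells (BEC) and lymphatic endothelial cells (LEC) were defined in the study as gp38neg CD31+ and gp38+ CD31+ cells, so the 2 words of each label, for cell type and for gate, point to opposite populations. The arrays are called here by their gate word, and every difference is double positive minus CD31+. Read by the cell type word, each sign would be turned.

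Most of the defining markers followed the gate words. Pdpn, which encodes gp38, had a mean log2 value of 7.64 in the double-positive and 3.58 in the CD31+ group. The lymphatic markers Lyve1 and Mmrn1 had means of 11.08 and 11.51 in the double-positive group and 5.76 and 4.03 in the CD31+ group. The blood endothelial marker Flt1 was lower in the double-positive group, at 3.50 against 8.02. At 5% false discovery rate (FDR) in limma, 4 of 7 lymphatic markers were called higher and 0 lower in the double-positive group, while 5 of 7 blood endothelial markers were called lower and 0 higher (unadjusted p under 0.05 in 6 and 0, and in 6 and 0). Prox1, the transcription factor that defines lymphatic identity, did not separate the groups, with 6.73, 6.56 and 9.20 in the double-positive replicates and 7.32, 6.92 and 8.04 in the CD31+ replicates. Pecam1, which encodes CD31, was near the lowest value of the files in both groups, at 2.41 and 2.48. Values are log2 RNA abundances on which no value lies below 2.39, the floor. 5 of the 42 collagen genes stayed within 0.1 of it on all 6 arrays (11.9%, against 26.1% of all genes), where no difference can be seen. Another 22 stayed below a log2 value of 5 on all arrays, so 27 were dim throughout (64.3%, against 71.7% of all genes) and 15 reached that value on any. The double-positive arrays were brighter among bright probe sets, and centring each array on those probe sets lowers every difference by 0.68. For Actb the gap between 3′ and 5′ signal, a sign of how far amplified RNA is shortened, was 6.07 to 7.38 on CD31+ and 7.58 to 7.83 on double-positive arrays, and the part of this in the results was not tested. Arrays correlated at 0.960 to 0.988 within a group and at 0.924 to 0.957 between groups. The libraries measure populations, so fewer cells of a type and less RNA per cell cannot be told apart.

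Collagens are trimers of chains built on a short repeat that begins with glycine. Fibrillar chains assemble into the fibers that carry tension in stroma, and in LN such fibers form the conduits that fibroblastic reticular cells ensheath. Type IV collagen forms the sheet of the basement membrane beneath blood vessels, while types XV and XVIII are proteoglycans at its border with the stroma. Lymphatic sinuses and capillaries are known for a thin or discontinuous basement membrane.

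Stretches upstream of the start are shown for chain genes that lie side by side or moved together. They are credited to RefSeq on build GRCm38.p6, are written 5′ to 3′ on the strand of the gene, and end at the border of the annotated gene span, except that of Col4a2, which is explained with it. Capitals mark 3 motifs searched on both strands, whose matches did not overlap here: CCAAT, the GC box GGGCGG and the TATA motif TATAAA. The promoter table held 36 windows for 33 of the 42 genes. Of these windows 36.1% held CCAAT, 61.1% the GC box and 13.9% the TATA motif, against 37.4%, 35.7% and 13.6% of all 32851 windows of the same length. A match is a description of letters, not evidence of a bound factor.

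The first pair consists of Col1a2 and Col3a1, fibrillar chains on different chromosomes, which had nearly equal differences between the groups. The Col1a2 stretch spans chr6:4505368-4505617 (+ strand, 62% G or C) and the Col3a1 stretch chr1:45311288-45311537 (+ strand, 35.2% G or C). The stretch of Col1a2 has 2 GC boxes and 1 CCAAT, and that of Col3a1 has 1 TATA motif, so they share none of the motifs searched.
Col1a2: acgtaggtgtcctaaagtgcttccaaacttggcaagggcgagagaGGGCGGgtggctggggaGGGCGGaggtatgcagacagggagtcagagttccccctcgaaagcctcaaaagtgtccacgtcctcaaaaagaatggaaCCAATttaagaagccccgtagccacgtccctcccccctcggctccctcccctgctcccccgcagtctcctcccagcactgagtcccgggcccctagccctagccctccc
Col3a1: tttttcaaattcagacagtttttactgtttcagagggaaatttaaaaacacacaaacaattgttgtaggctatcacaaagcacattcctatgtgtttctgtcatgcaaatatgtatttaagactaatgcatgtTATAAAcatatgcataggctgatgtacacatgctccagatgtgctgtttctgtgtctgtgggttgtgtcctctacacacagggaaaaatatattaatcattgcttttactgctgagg

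The second pair consists of Col4a5 and Col4a6, head to head on the X chromosome with 1274 bases between their spans. Their stretches are chrX:141475169-141475369 (+ strand) and chrX:141474096-141474326 (- strand). Col4a5 differed between the groups and Col4a6 did not leave the dim range, and of the motifs searched there was 1 CCAAT in the stretch of Col4a5 and 0 in that of Col4a6.
Col4a5: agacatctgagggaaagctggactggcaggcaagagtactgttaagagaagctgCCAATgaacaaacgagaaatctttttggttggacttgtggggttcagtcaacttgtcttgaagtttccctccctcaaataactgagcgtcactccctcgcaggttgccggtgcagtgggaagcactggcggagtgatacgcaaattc
Col4a6: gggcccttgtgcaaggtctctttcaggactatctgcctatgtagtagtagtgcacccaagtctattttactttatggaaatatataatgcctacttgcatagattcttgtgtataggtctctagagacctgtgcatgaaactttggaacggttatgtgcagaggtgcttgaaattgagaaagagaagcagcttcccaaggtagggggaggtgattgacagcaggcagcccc

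The third pair, Col4a1 and Col4a2, is transcribed in opposite directions from starts so close that the annotated spans overlap by 85 bases on chromosome 8. Only 30 bases are shown, around the CCAAT nearest to the start of Col4a2 (chr8:11312768-11312797, + strand), which lie inside the span of Col4a1.
Col4a2: gctccCCAATttgttggcgctgccccctcc

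The collagen genes moved in both directions. Col12a1 and Col4a5 were higher in the double-positive arrays, by 4.57 and 3.63 on the log2 scale, and were the members that passed 5% FDR. These 2 of 42 genes (4.76%) compare with 0.879% of all genes called higher. No member was called lower, against 0.176% of all genes. Limma gave 5 members higher and 8 lower at unadjusted p under 0.05, that is 11.9% and 19.0%, against 12.5% and 2.12% of all genes. The groups did not overlap for 5 members as higher (11.9%, against 16.9% of all genes) and for 10 as lower (23.8%, against 3.42%). The median difference was -0.08 over the 42 genes and 0.00 over all genes.

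**Figure D1:**
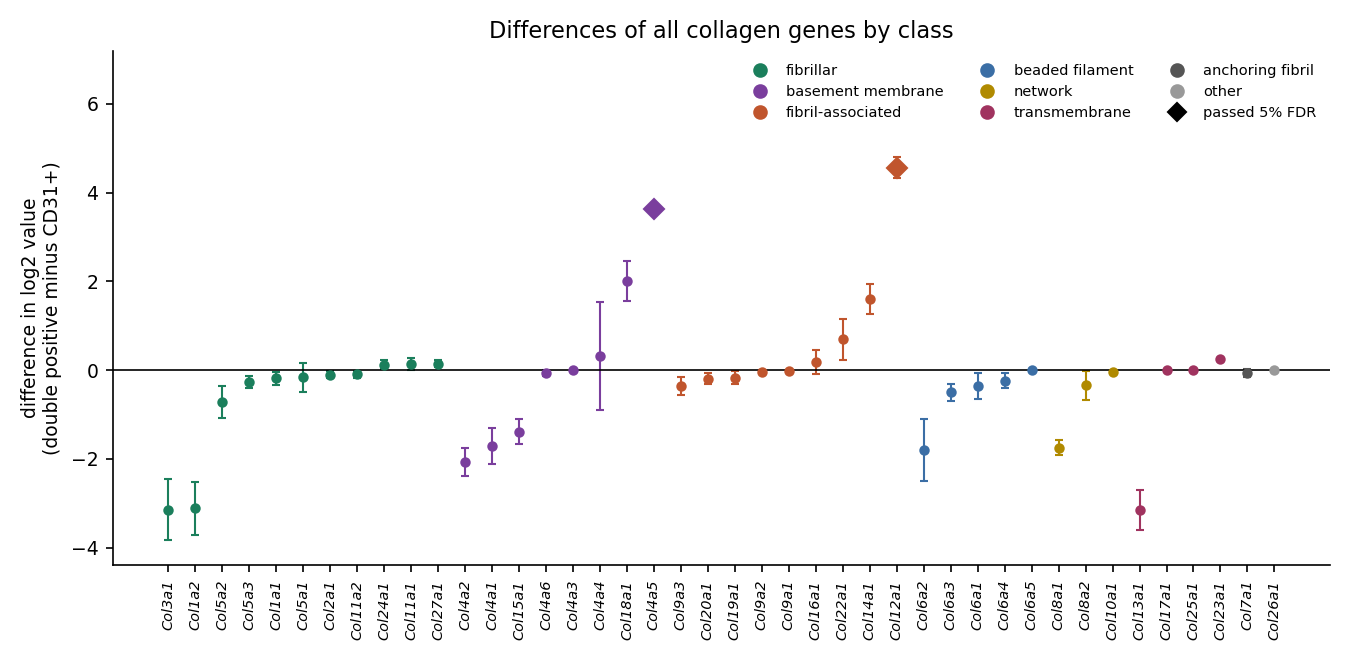
Difference in log2 value (double positive minus CD31+, y axis) of each of the 42 collagen genes (x axis), grouped and coloured by structural class. Points are limma estimates at the brightest probe set of each gene, bars are 1 standard error, and diamonds mark Col4a5 (3.63) and Col12a1 (4.57), which passed 5% FDR; Col1a2, Col3a1 and Col13a1 lie lowest, at -3.11 to -3.15.

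The basement membrane chains differed in opposite directions. Col4a5, an X-linked chain of minor type IV networks, was measured at 6.92, 7.33 and 7.27 in double-positive replicates 1 to 3 and at 3.58, 3.44 and 3.58 in the CD31+ replicates. All double-positive arrays were far above all CD31+ arrays. The difference was 3.63 (adjusted p = 0.0120 from limma, standard error 0.130) and the array pairs of the same number differed by 3.33 to 3.88. It stayed below an adjusted p of 0.05 with any 1 array left out, at 0.00915 to 0.0474. Blocking on the replicate number gave an adjusted p of 0.157 from limma (unadjusted 0.000655), and a second probe set of Col4a5, below a log2 value of 5 throughout, differed by 0.22.

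Col4a1 and Col4a2, the pair of chains that make up the common type IV network of nearly all vessels, lay lower in the double-positive arrays. Col4a1 had 8.76, 7.92 and 7.89 in the double-positive replicates against 10.42, 9.92 and 9.36 in the CD31+ replicates. Col4a2 had 7.91, 7.02 and 7.27 against 9.80, 9.51 and 9.11. The groups did not overlap for either gene. Over all probe sets neither passed, with differences of -1.71 (standard error 0.402) for Col4a1 and -2.07 (standard error 0.319) for Col4a2 and adjusted p = 0.255 and 0.115 from limma. Col4a1 has another bright probe set, which gave -1.73 with no overlap. When dim probe sets were left out (a log2 value of at least 5 on at least 3 arrays was needed to stay), both passed as lower, at 0.00997 and 0.00231 for the adjusted p from limma. Both genes are bright in both groups, so their place among the tested genes did not hang on the group in which they are high.

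Since the arrays differ in overall brightness, the members were also compared with each other within arrays, which no scaling can change. The difference of Col4a5 exceeded that of Col4a1 by 5.34 ± 0.477 (SD, n = 3 pairs), with 4.99, 5.89 and 5.15 in pairs 1 to 3. Against Col4a2 it was 5.71 ± 0.596 (SD, n = 3 pairs). Col4a1 and Col4a2 themselves moved apart by 0.36 ± 0.129 (SD, n = 3 pairs). These pairings were chosen after the values were seen and carry no test.

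The other partners of Col4a5 were dim. Col4a6, with which it forms a network of its own, lay between 2.46 and 2.69 on all arrays. Col4a3, one of its partners in the network of the kidney filter, lay between 2.39 and 2.43. Col4a4, the other, had 2.39, 5.78 and 2.39 in the double-positive replicates and 2.61, 4.41 and 2.60 in the CD31+ replicates, so both arrays numbered 2 stood above the other arrays. The difference of 0.32 (95% interval -2.98 to 3.61) was far within that spread, and the other probe sets of Col4a4 stayed near the floor.

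The multiplexins, whose C-terminal fragments are known as endostatins, also went opposite ways. Col18a1 had 7.53, 6.39 and 7.05 in the double-positive replicates and 5.50, 4.37 and 5.05 in the CD31+ replicates. The groups did not overlap, and the difference was nearly the same in every pair, at 2.03, 2.02 and 2.00. The test without a block gave 2.02 (adjusted p = 0.231 from limma, standard error 0.448). With the replicate number as a block Col18a1 passed (adjusted p = 0.0448 from limma), as 1 of 2 genes in the whole table that did at their brightest probe sets (0.011% of genes). This call rests on a standard error of 0.00944, which comes from the close agreement of the pairs at that probe set. The second probe set of Col18a1 differed by 0.93 with overlapping groups. Its pairs differed by 1.14, 0.16 and 1.49, and it did not pass with the block (adjusted p = 0.661 from limma). Col15a1, which was chosen for description after its values were seen, had 3.46, 3.29 and 3.50 against 5.26, 4.29 and 4.86. Its difference of -1.39 (adjusted p = 0.189 from limma, standard error 0.276) did not pass, though the groups did not overlap. Within arrays the difference of Col18a1 exceeded that of Col15a1 by 3.40 ± 0.412 (SD, n = 3 pairs).

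**Figure D2:**
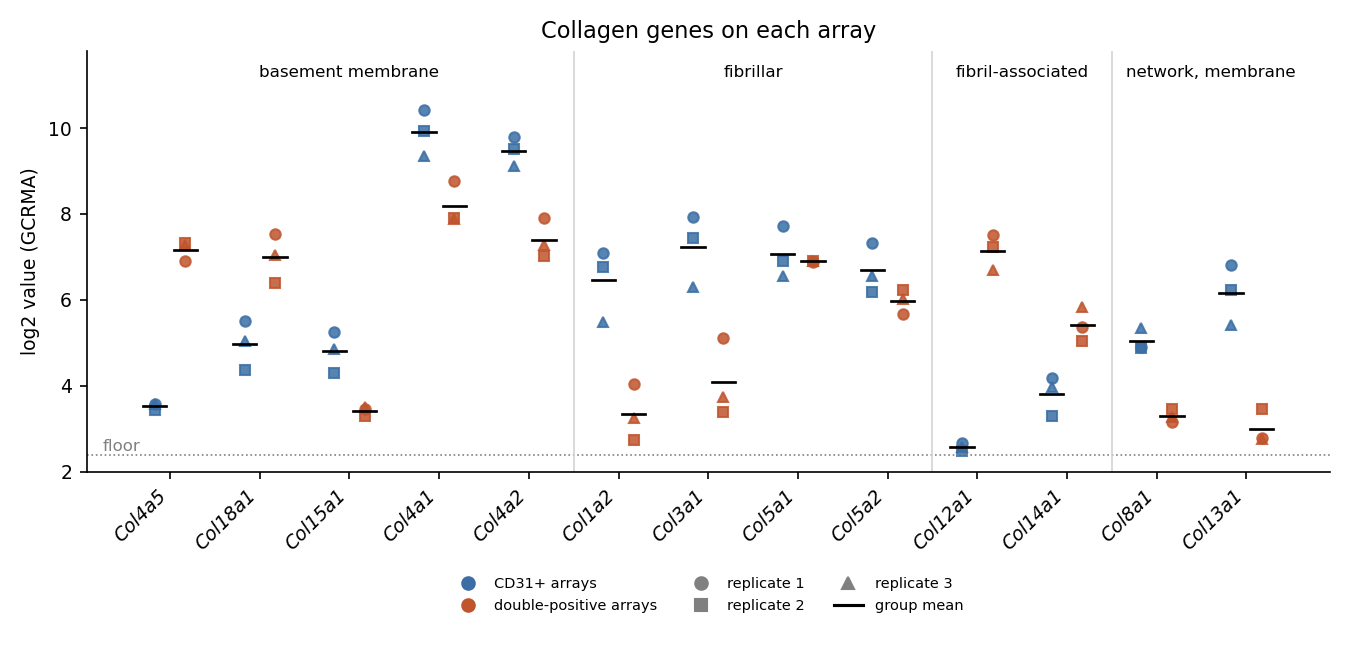
Log2 values (GCRMA, y axis) of 13 collagen genes (x axis) on each of the 6 arrays, with CD31+ arrays in blue and double-positive arrays in orange. Symbols give the replicate number, black bars the group means and the dotted line the floor at 2.39; Col5a1 and Col5a2 are the genes whose groups overlap.

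Of the 11 fibrillar chains, 0 passed 5% FDR in limma. Unadjusted p was under 0.05 for 0 as higher (against 12.5% of all genes) and 2 as lower (18.2%, against 2.12%). The latter were Col1a2, a chain of type I collagen, and Col3a1, the chain of type III collagen in reticular fibers. Col1a2 had 4.04, 2.74 and 3.25 in the double-positive replicates and 7.10, 6.77 and 5.48 in the CD31+ replicates. Col3a1 had 5.12, 3.38 and 3.74 against 7.94, 7.44 and 6.29. Every CD31+ array was above every double-positive array for both genes. The differences were -3.11 (standard error 0.596) for Col1a2 and -3.15 (standard error 0.691) for Col3a1 and did not pass (adjusted p = 0.174 and 0.226 from limma). The gap between these differences was 0.04 ± 0.277 (SD, n = 3 pairs). Without dim probe sets both passed as lower (adjusted p = 0.00185 and 0.00313 from limma), but each had a group mean of at least 5 in the CD31+ arrays only.

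Other fibrillar chains stood apart from this pair. Col5a1, a chain of the type V collagen that starts fibrils, had 6.88, 6.91 and 6.91 in the double-positive replicates and 7.72, 6.91 and 6.56 in the CD31+ replicates. The groups overlapped, with a difference of -0.16 (95% interval -1.05 to 0.73). It was 0.17 without CD31+ replicate 1, the brightest array for this gene. Double-positive replicates 2 and 3 and CD31+ replicate 2 held the identical value 6.90979, so the spread of this probe set may be understated. The other probe sets of Col5a1 stayed below 5 on all arrays. Col5a2, another type V chain and the chromosomal neighbor of Col3a1 at a distance of 24624 bases, had 5.66, 6.24 and 6.02 against 7.33, 6.19 and 6.56. Its difference was -0.72 (95% interval -1.69 to 0.26), and the groups overlapped. Within arrays the difference of Col5a1 exceeded that of Col3a1 by 2.98 ± 1.04 (SD, n = 3 pairs). The difference of Col5a2 exceeded that of Col3a1 by 2.43 ± 1.53 (SD, n = 3 pairs).

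Col1a1, which supplies most chains of the type I trimer, lay at 2.39 on every double-positive array and at 2.39, 2.49 and 2.86 on the CD31+ arrays. With this gene below 3 on every array, type I collagen can be followed here through Col1a2 only. The other 6 fibrillar chains (Col2a1, Col5a3, Col11a1, Col11a2, Col24a1 and Col27a1) stayed below 5 on all arrays, with differences of -0.27 to 0.15. The median difference of the 11 fibrillar genes was -0.16, which is the value of Col5a1, though most of these genes were dim. That of the 8 basement membrane genes was -0.04, and it fell between the dim Col4a3 and Col4a6.

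Markers of stromal cells that make fibrillar collagen were examined beside these values. Of 9 measured markers of fibroblastic reticular cells, 2 were called higher (Postn and Thy1, 22.2%, against 0.879% of all genes) and 0 were called lower. For 3 markers as higher and 3 as lower the groups did not overlap (33.3% each, against 16.9% and 3.42% of all genes). The summed signal of the 9 markers, given as log2, ran from 11.09 to 11.89 in the double-positive group and from 7.86 to 9.39 in the CD31+ group. Most of the double-positive sum came from Postn alone, so it does not describe the other markers of the list. Postn had 10.89, 11.78 and 11.30 against 6.94, 6.62 and 6.62. Mfap5 was at the floor on every array, and Lum was at the floor on the double-positive arrays and at 2.62, 2.72 and 2.39 on the CD31+ arrays. The markers that lay lower in the double-positive arrays, as Col1a2 and Col3a1 did, were Pdgfra, a growth factor receptor of fibroblasts, Pdgfrb, its relative on pericytes, and Dpt, a matrix protein.

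Pdgfrb had 4.14, 4.78 and 2.99 in the double-positive replicates and 7.06, 8.50 and 5.12 in the CD31+ replicates. Pdgfra had 2.50, 2.69 and 2.69 against 4.31, 3.84 and 3.94. Of 9 markers of pericytes and smooth muscle, 0 were called by limma. Unadjusted p was under 0.05 for 0 as higher (against 12.5% of all genes) and 1 as lower (11.1%, against 2.12%). The summed signal of these 9 markers ran from 8.17 to 8.30 in the double-positive group and from 7.30 to 9.21 in the CD31+ group, so the ranges overlapped. Acta2, the smooth muscle actin, had 4.27, 4.17 and 3.49 against 6.34, 7.43 and 5.17. Kcnj8 went the other way without overlap, with 6.81, 5.23 and 5.72 against 5.12, 4.87 and 3.63. Rgs5, the brightest of the list, overlapped, at 7.02, 7.61 and 7.74 against 7.24, 8.13 and 5.98. In this list the groups did not overlap for 1 marker as higher and 2 as lower (11.1% and 22.2%, against 16.9% and 3.42% of all genes). Des was at the floor on every array and Cspg4 lay at 2.42 to 2.54. CD31+ replicate 3 was the lowest of its group for Col1a2, Col3a1, Col13a1, Pdgfrb, Dpt, Dcn and Acta2, but not for Pdgfra. It was also the lowest for Col4a1 and for the endothelial genes Cd34, Sox17 and Cldn5, though not for Flt1. This array was dimmer in general, with 10.7% of probe sets at 5 or more, against 12.3% and 12.6% in CD31+ replicates 1 and 2. The part of stromal cells in the collagen values was not tested.

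**Figure D3:**
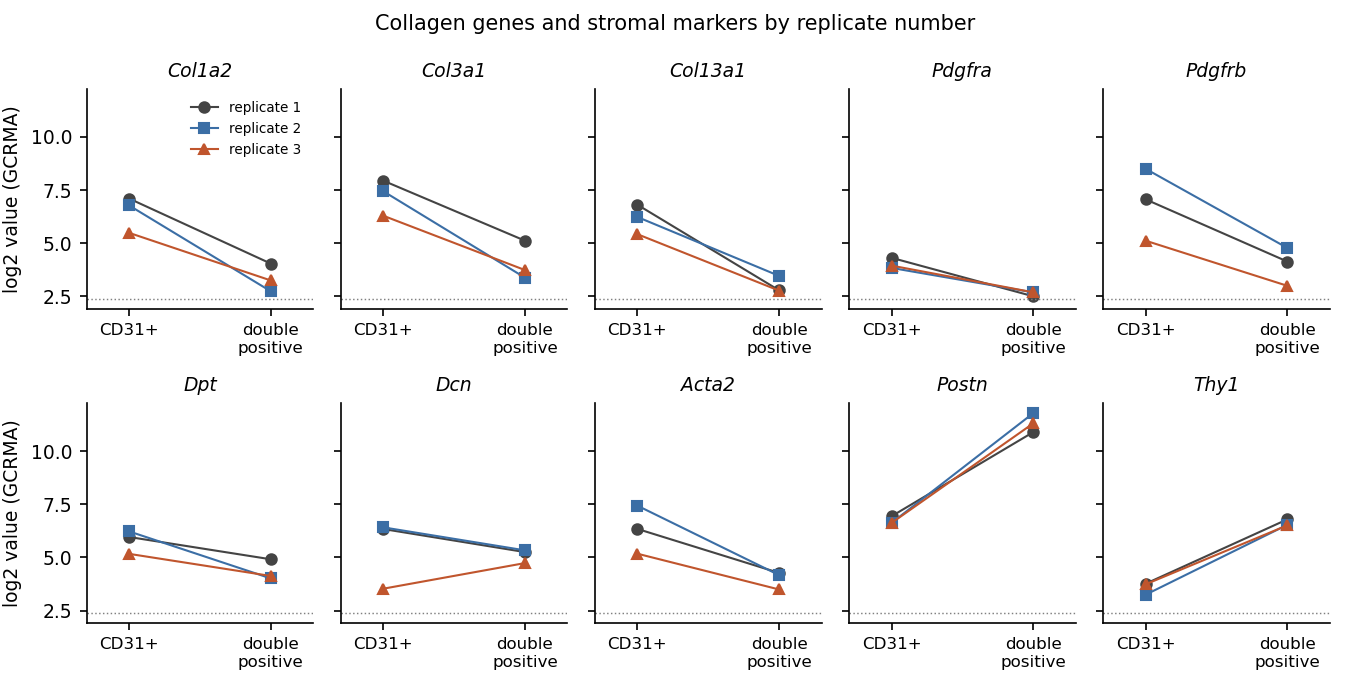
Log2 values (GCRMA, y axis) of 3 collagen genes and 7 stromal markers in the CD31+ and double-positive arrays (x axis), with lines joining arrays of the same replicate number and a dotted line at the floor of 2.39. Col1a2, Col3a1, Col13a1, Pdgfra, Pdgfrb, Dpt and Acta2 fall from left to right in every pair, Postn and Thy1 rise, and Dcn goes both ways. Il7 and Kcnj8, other markers of these lists that rise in every pair, are not drawn.

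The largest difference among the collagens was that of a fibril-associated chain. Col12a1, which coats type I fibrils in tissue under tension, had 7.52, 7.22 and 6.69 in the double-positive replicates and 2.66, 2.48 and 2.58 in the CD31+ replicates. The CD31+ arrays lay close to the floor, so the size of the difference depends on where the floor lies. The difference was 4.57 (adjusted p = 0.0180 from limma, standard error 0.239), and the pairs differed by 4.86, 4.74 and 4.10. This call was less stable than that of Col4a5. When 1 array was left out, the adjusted p from limma was 0.0177 without double-positive replicate 3 and 0.0539 to 0.0738 without any other. With the replicate block it was 0.169. The other 3 probe sets of Col12a1 were dim on all arrays and differed by -0.14 to 0.03, so the difference rests on 1 probe set.

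Col14a1, a close relative of Col12a1, also lay higher in the double-positive arrays. It had 5.37, 5.05 and 5.84 there and 4.17, 3.29 and 3.98 in the CD31+ replicates, without overlap. The difference was 1.60 (adjusted p = 0.212 from limma, standard error 0.340). It passed without dim probe sets (adjusted p = 0.00909 from limma) but not when the arrays were also centred, where it was 0.93 (adjusted p = 0.104 from limma). Col14a1 stayed in both of these tests through the double-positive arrays alone. The other 7 fibril-associated chains did not reach 5 on any array. Of these Col22a1 had 2.55, 3.01 and 4.16 in the double-positive replicates against 2.54 to 2.55 in the CD31+ replicates.

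Col13a1 and Col8a1 had higher values in the CD31+ arrays. Col13a1, a transmembrane collagen of cell adhesions, had 2.78, 3.46 and 2.77 in the double-positive replicates and 6.81, 6.23 and 5.42 in the CD31+ replicates. Its difference was -3.15 (adjusted p = 0.0978 from limma, standard error 0.443), and it passed without dim probe sets (adjusted p = 0.000605 from limma). It stayed in that test through the CD31+ arrays alone. Col8a1, a chain of the network collagen of vessel walls, had 3.16, 3.45 and 3.28 against 4.91, 4.87 and 5.35. Its difference was -1.75 (standard error 0.170), and at an adjusted p of 0.0504 from limma it lay just outside the threshold. Both other probe sets of Col8a1 stayed below 5 on all arrays and differed by -0.19 and 0.00, and its partner Col8a2 lay at 2.54 on all other arrays but at 3.55 on CD31+ replicate 3.

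The other transmembrane chains were dim. Col23a1 was above its CD31+ values in every double-positive array, but by 0.24 only and at 2.59 to 2.70. Col17a1 and Col25a1 lay at or near the floor throughout. Among the beaded filament chains, Col6a2 had 5.15, 4.81 and 2.80 in the CD31+ replicates and 2.46 on all double-positive arrays, or -1.79 in difference (adjusted p = 0.595 from limma, standard error 0.701). CD31+ replicate 3 thus lay near the double-positive arrays. Its partners Col6a1 and Col6a3 stayed below 3.5 on every array. Col6a3 was called lower when CD31+ replicate 3 was left out, at -0.69 (adjusted p = 0.0103 from limma), and had -0.50 with all arrays (adjusted p = 0.554 from limma).

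Of the 42 genes, 27 have more than 1 probe set. Of their 40 further probe sets, 38 stayed below 5 on all arrays and 0 passed 5% FDR. The exceptions that reached 5 were those of Col4a1 and Col18a1, which gave the same direction as the brighter probe sets. When all probe sets of a gene were averaged, Col4a5 and Col12a1 still passed as higher, at 1.93 and 1.08 (adjusted p = 0.0235 and 0.0154 from limma). Col13a1 and Col8a1 passed as lower, at -3.15 and -0.65 (adjusted p = 0.0499 and 0.0297 from limma). Col13a1 has 1 probe set, so its values were unchanged and its call came with the smaller set of features tested. The further probe sets of Col4a5, Col12a1 and Col8a1 were dim, so their averages carry mainly the brightest probe set. These calls are therefore not independent support.

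**Figure D4:**
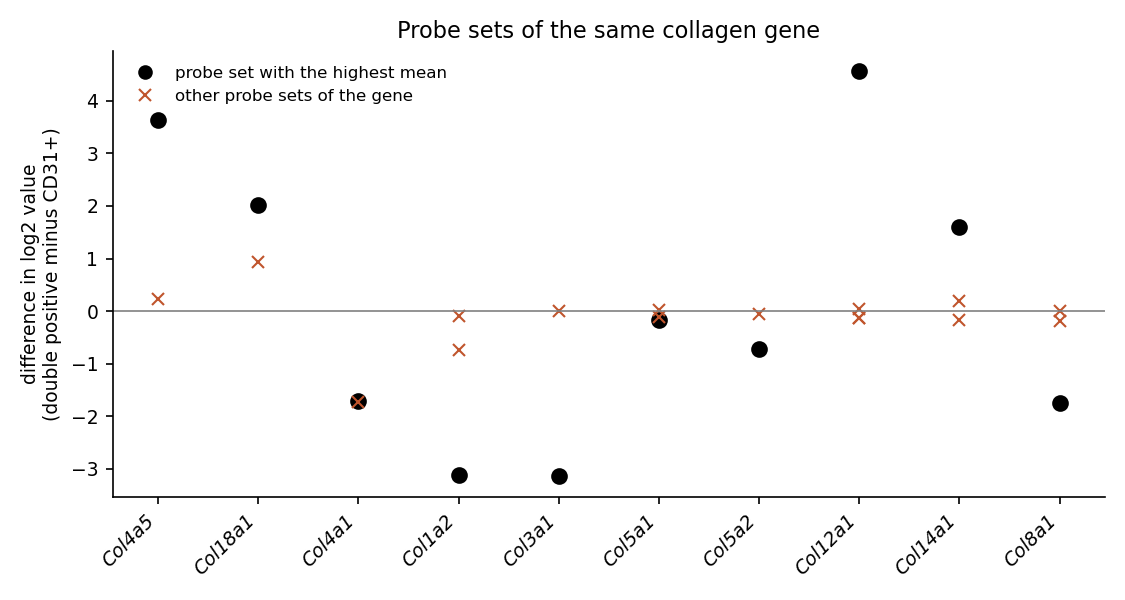
Difference in log2 value (double positive minus CD31+, y axis) of every probe set of the 10 described collagen genes with more than 1 (x axis). Filled circles are the probe sets with the highest mean and crosses the others; the crosses farthest from 0 are those of Col4a1 (-1.73), Col18a1 (0.93) and Col1a2 (-0.74), and those of Col12a1 lie between -0.14 and 0.03.

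Genes that modify, process or bind collagen were counted from lists. Over all genes, unadjusted p was under 0.05 for 12.5% as higher and 2.12% as lower. Of 19 genes listed for collagen modification, mostly enzymes and chaperones of the endoplasmic reticulum, limma called 0 higher and 0 lower. Unadjusted p was under 0.05 for 3 as higher (15.8%) and 0 as lower, and the median difference was 0.16. Serpinh1, the collagen chaperone, had a double-positive mean of 7.07 ± 0.183 and a CD31+ mean of 7.35 ± 0.326 (SD, n = 3 each), with overlap. P4hb, a subunit of prolyl hydroxylase, had 8.61 ± 0.303 and 7.72 ± 0.490 (SD, n = 3 each), without overlap (adjusted p = 0.527 from limma). The prolyl 3-hydroxylase family gene P3h3 differed by 1.12 and the hydroxylase partner gene Crtap by 1.16, and neither passed over all probe sets. Without dim probe sets Crtap passed as higher (adjusted p = 0.0491 from limma), but not when the arrays were also centred (adjusted p = 0.418 from limma). The filter on dim probe sets gave 1 gene of the list as higher, and 3 with the replicate block, and 0 as lower. Those tests called 33.2% and 46.4% of their genes higher and 4.11% and 4.99% lower.

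Of 12 genes for extracellular processing and cross-linking, limma called 0. Unadjusted p was under 0.05 for 1 as higher and 1 as lower (8.33% each, against 12.5% and 2.12% of all genes). Pcolce, which speeds the removal of the C-propeptide from fibrillar procollagen, had 7.57, 7.69 and 7.97 in the double-positive replicates and 9.33, 9.69 and 9.17 in the CD31+ replicates. Its difference was -1.66 (adjusted p = 0.0642 from limma), which passed as lower without dim probe sets (adjusted p = 0.00313 from limma). The lysyl oxidase genes Lox, Loxl1, Loxl3 and Loxl4 were dim, with group means of 2.39 to 2.97. Tgm2, a transglutaminase, differed by 1.34 (adjusted p = 0.300 from limma) and passed as higher without dim probe sets (adjusted p = 0.0190 from limma). It did not pass when the arrays were also centred (adjusted p = 0.182 from limma). Pxdn, the peroxidasin that cross-links type IV collagen, differed by 0.10 (95% interval -0.52 to 0.71).

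Of 9 collagen receptors, limma called 0. Unadjusted p was under 0.05 for 2 as higher (22.2%, against 12.5% of all genes) and 0 as lower (against 2.12%). Ddr1, a receptor kinase for several collagens, differed by 1.35 and Itgb1, the shared beta chain of collagen-binding integrins, by 0.76, and neither passed. Itga1, the alpha chain that pairs with it on type IV collagen, had a double-positive mean of 5.41 ± 0.745 and a CD31+ mean of 6.30 ± 0.655 (SD, n = 3 each), with overlap. Ddr2, a receptor for fibrillar collagen, had 5.85 ± 0.227 and 5.73 ± 0.484 (SD, n = 3 each).

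11 of the 42 collagen genes passed the requirement of at least 5 on at least 3 arrays. For 7 of these the mean reached 5 in only 1 group, so they had to differ to be tested there. Of the 11, 4 were called higher and 5 lower, beside 33.2% and 4.11% of the genes in that test. The replicate block with this requirement gave 4 higher and 5 lower (46.4% and 4.99% of genes), and centring with it gave 3 higher and 6 lower (12.6% and 9.63% of genes). On all probe sets, a variance trend with robust fitting left the counts at 2 higher and 0 lower (0.588% and 0.154% of genes). When a mean of at least 5 over all 6 arrays was required, 7 collagen genes stayed. Of these, Col4a5 and Col18a1 were called higher and Col3a1, Col4a1 and Col4a2 lower, beside 30.7% and 3.46% of genes. Col4a5, Col18a1 and Col3a1 had a mean of at least 5 in 1 group only and so were kept there through the group in which they are high. The 29 members outside the 12 chosen by rule and Col15a1 had differences from -1.79 to 0.70, of which 27 were within 0.5 of 0.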

How the data were processed

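RNA of 6 sorted samples (20 ng each) was amplified in 2 rounds, labelled with biotin and measured on Affymetrix whole-genome mouse arrays. The authors normalized the arrays with GCRMA, and the deposited values are log2 abundances, 1 per probe set and array. GCRMA pulls dim probe sets to a common floor, which hides differences there. Tool versions of the study and which arrays were normalized together are not given in the sources used here. Scanner intensities were not used.

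Of 45101 probe sets, 64 controls were left out. Of the rest, 34945 map to 1 gene, 932 to several and 9160 to none of the platform table, and those with 1 gene were used for genes. limma 3.58.1 in R 4.3.3 (lmFit, eBayes) was fitted to all 45037 probe sets without block or filter, with Benjamini-Hochberg adjustment at 5% FDR. With so many probe sets at the floor the shared variance estimate carried little weight (prior df 0.356, against 4.92 over the 6088 probe sets left by the filter). The fit was tested on simulated data. The methods of the study name limma and that FDR. Replicates are labelled biological, and the number of arrays limits the precision: an exact permutation test of 3 against 3 cannot give a two-sided p under 0.1.

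Same-numbered arrays deviated together from their group means, at correlations of 0.341, 0.475 and 0.418 over 5764 probe sets, against -0.405 to 0.0566 for others, and the series text calls the samples paired. Blocked values are therefore given where they change a call. Collagen genes with a group mean of at least 5 or a call were described by rule, with the chain partners of those, and of each pathway list up to 6 genes with the smallest adjusted p. Further genes were named after their values were seen. The members and lists were chosen with earlier results of these data known. Some listed genes without a probe set of their own (such as Fkbp10, Adamts2, Adamts14, Loxl2, Itga11 and Ccl19) were not analysed here. Of 4 measured genes of hematopoietic cells, limma called 0 (unadjusted p under 0.05 in 0), and of 5 pan-endothelial genes it called 0 (unadjusted p under 0.05 in 1, as higher). Alternatives were the replicate block, filters on dim probe sets, centred arrays, trend and robust settings, left-out arrays and averaged probe sets. Figures were drawn with matplotlib 3.10.9.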

Additional observations from a re-analysis of the deposited data

How the results depend on the processing

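Every difference of the 12 collagen genes chosen by rule and of Col15a1 kept its direction under all alternatives run, except that of Col5a1, which ran from -0.42 to 0.17 with 1 array left out and was above 0 without CD31+ replicate 1. Calls moved more. Against 2 collagen genes called higher, limma gave 4 with the filter of at least 5 on 3 arrays, 4 with that filter and the replicate block, 4 with centred arrays, 1 with the replicate block alone, 0 without both arrays numbered 2, and 1 to 2 with any 1 array left out. Against 0 called lower it gave 5 with the filter, 5 with the filter and the block, 6 with the filter and centring, 3 with the filter on the mean, 2 with averaged probe sets, and 0 to 1 with any 1 array left out. Centred arrays without a filter gave 34 lower, because centring moves every probe set at the floor by the same amount. Among the collagen genes the replicate block changed no other call than those of Col12a1 and Col4a5, which were lost, and of Col18a1, which was gained.

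With centred arrays the median difference was -0.76 over all collagen genes, -0.84 over the fibrillar and -0.71 over the basement membrane genes. Without both arrays numbered 2 it was -0.14 over all and -0.11 over the basement membrane genes. Averaged probe sets gave -0.00757 over the basement membrane genes. Leaving out 1 array gave -0.10 to -0.02, -0.23 to -0.13 and -0.43 to 0.00 for the 3 sets, the last end of which is positive at 2.59e-05 without CD31+ replicate 2, and the first -0.43 without double-positive replicate 2. Low signal limits what can be seen for the 27 genes that stayed below 5.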
